A study of Mus musculus with 14 samples.

Results

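The miR-99b/let-7e/miR-125a cluster is a group of 3 microRNA (miRNA) hairpins encoded side by side within the mouse gene Spaca6. Its members were taken by name, as the lines for both arms of each hairpin, by a rule that uses no measured value, although the cluster was picked for study with earlier results of these data known. All 6 lines were found among the 1250 lines of a small RNA count table, and they are mmu-miR-99b-5p, mmu-miR-99b-3p, mmu-let-7e-5p, mmu-let-7e-3p, mmu-miR-125a-5p and mmu-miR-125a-3p, written below without the species prefix. The table covers 14 mouse libraries whose source is labelled bone marrow and whose tissue is labelled excised bone. Exosomes, small vesicles shed by cells and here isolated from the medium on an OptiPrep gradient, gave 4 libraries from macrophages stimulated with interleukin 4 (IL4) and 4 from control macrophages. Cell lysates gave 3 libraries with IL4 and 3 control libraries. IL4 is a cytokine that turns macrophages towards an alternatively activated state. The titles call the control libraries WT and give no other allele in any group. The strain, age and sex of the mice, the dose and duration of IL4, and whether the libraries came from separate animals or cultures do not appear in the sources used here, so the p-values describe spread between libraries, which may be technical.

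A miRNA is processed from a hairpin transcript, and 1 of its arms usually remains as the guide that pairs with target mRNAs through its seed, bases 2 to 8 from the 5′ end. Hairpins that lie close together on 1 strand can be cut from a shared primary transcript and then processed and degraded separately. The mammalian genome carries related clusters with the same order of families, among them miR-99a/let-7c/miR-125b-2, so that each seed of the cluster is also made elsewhere. The miR-99 family is known for repressing the growth kinase mTOR, the let-7 family for repressing growth and stem cell genes, and the miR-125 family for its effects on blood stem cells and on macrophage activation. In mouse macrophages let-7e has been described as a repressor of the endotoxin receptor Tlr4.

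The mature sequences show which members can stand in for another miRNA and which cannot. They are printed 5′ to 3′ from RefSeq (GRCm38.p6), with the seed in capitals, and the 5p arms are followed by the members of their seed families that the results return to.
miR-99b-5p: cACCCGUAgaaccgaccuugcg
miR-99a-5p: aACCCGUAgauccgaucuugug
miR-100-5p: aACCCGUAgauccgaacuugug
let-7e-5p: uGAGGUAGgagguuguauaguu
let-7a-5p: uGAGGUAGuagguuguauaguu
let-7c-5p: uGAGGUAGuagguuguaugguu
miR-125a-5p: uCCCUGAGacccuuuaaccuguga
miR-125b-5p: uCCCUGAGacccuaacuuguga
miR-99b-3p: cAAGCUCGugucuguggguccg
let-7e-3p: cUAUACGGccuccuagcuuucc
miR-125a-3p: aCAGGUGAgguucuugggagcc

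Among the mature lines, 3 carried the miR-99 seed, 10 the let-7 seed and 3 the miR-125 seed. The seed of miR-99b-3p was shared with miR-99a-3p, whereas let-7e-3p and miR-125a-3p had a seed of their own among the lines compared. Counting positions from 1 at the 5′ end, miR-99b-5p differs from miR-99a-5p by the 4 substitutions C1A, A11U, C16U and C21U. let-7e-5p differs from let-7c-5p by G9U and A19G, and from let-7a-5p by G9U alone. miR-125a-5p, of 24 bases, has its first 13 bases in common with the 22 bases of miR-125b-5p.

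The hairpins lie on the plus strand of chromosome 17 (GRCm38, GENCODE vM21). Mir99b is annotated at chr17:17830188-17830257, Mirlet7e at chr17:17830352-17830444 and Mir125a at chr17:17830812-17830879, with 94 bases between the first pair and 367 between the second, so the whole cluster spans 692 bases. Spaca6, a gene needed for sperm to fuse with the egg, is annotated at chr17:17827158-17843009 on the same strand with 16 transcripts. Mir99b and Mirlet7e lie in an intron of 2 of these, and 14 start downstream of them. Mir125a lies in an intron of the same 2 transcripts and overlaps the first exon of 1 short noncoding transcript. A predicted miRNA gene, Gm25927, is annotated over Mirlet7e on the minus strand at chr17:17830343-17830459, and no source used here says whether the counting used strand, so reads from the 2 cannot be told apart.

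**Figure D1:**
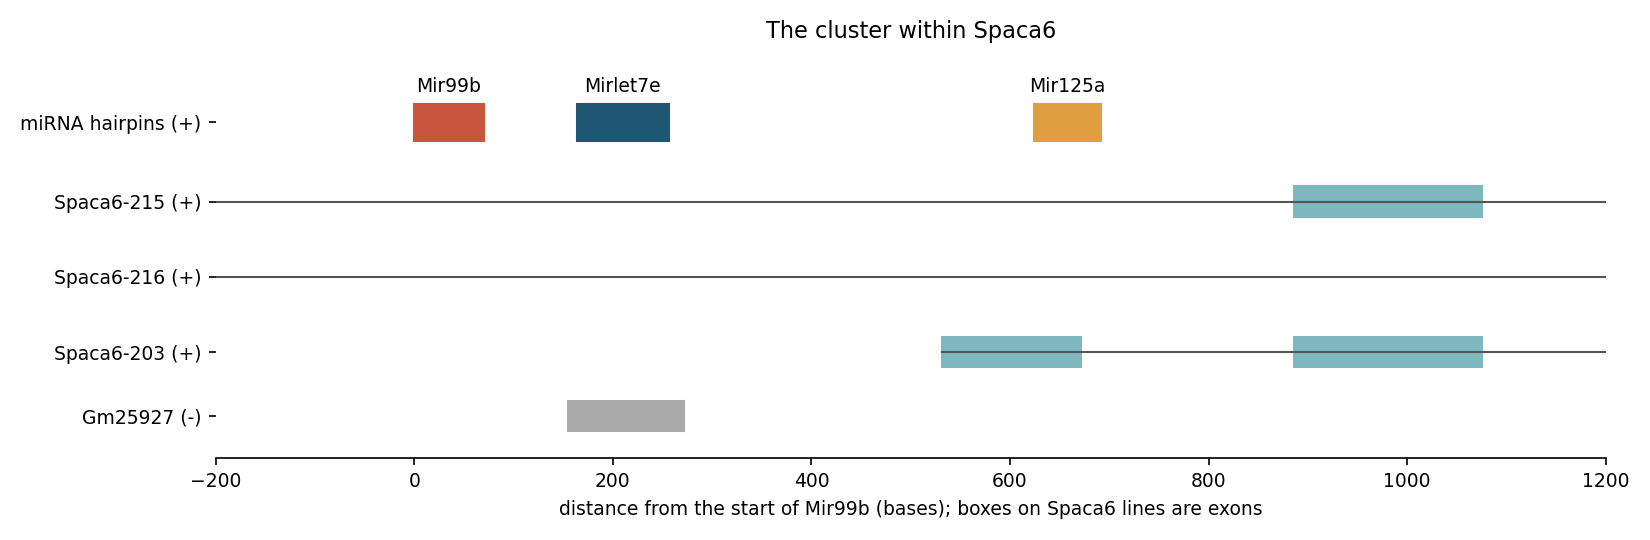
Map of the cluster, to scale, by distance in bases from the start of Mir99b, with the 3 hairpins on top, the 3 Spaca6 transcripts that span Mir125a below them (boxes are exons) and the minus-strand gene Gm25927 at the bottom. The hairpins fall within 692 bases, and of the transcripts drawn only the lowest of the Spaca6 lines has an exon that overlaps a hairpin, Mir125a.

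For the hairpins with a RefSeq precursor entry, the arms are shown in capitals within the stem-loop, since the balance of the arms is compared further on.
Mirlet7e: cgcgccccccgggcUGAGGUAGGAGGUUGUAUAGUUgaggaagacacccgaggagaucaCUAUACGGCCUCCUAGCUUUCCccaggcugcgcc
Mir125a: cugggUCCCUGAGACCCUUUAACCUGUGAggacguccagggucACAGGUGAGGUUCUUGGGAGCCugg

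Exosome libraries held 28417 to 411671 miRNA counts and lysates 3941480 to 6792079, so 3 counts, taken as the floor of detection, were worth 7.29 to 105.6 CPM (counts scaled to a common library total) in exosomes and 0.442 to 0.761 CPM in lysates. The floors cover counting error only, since reads copied by PCR are not separate molecules. Intervals printed with fold changes come from the edgeR fits and also carry spread between libraries. Myeloid markers (miR-223 and miR-142a, 4 lines) were detected in every group. Summed by cell type, markers of other cell types were scarce in lysates and common in exosomes. The 4 erythroid lines made up 2.18 to 3.05% of counts in IL4 exosomes, 2.95 to 5.53% in control exosomes, 0.0120 to 0.0152% in IL4 lysates and 0.0117 to 0.0211% in control lysates. The 2 endothelial lines made up 0.410 to 1.59%, 0.686 to 2.75%, 0.00134 to 0.00326% and 0.00274 to 0.00339% in the same 4 groups. The 6 epithelial lines ranged most widely, with 0.0355 to 10.5% in IL4 exosomes and 0.0814 to 4.89% in control exosomes, against 0.0143 to 0.0180% in IL4 lysates and 0.0200 to 0.0242% in control lysates. That sum does not stand for each epithelial line. Of 5 tested with edgeR, 2 were higher in exosomes at an adjusted p at or under 0.05, with IL4 and in controls. Their log2 fold changes ran from -0.62 to 13.9 with IL4, 1 of them below 0, and from -0.57 to 11.8 in controls, 2 of them below 0. By summed ranges, the lymphocyte line, 5 stromal lines, 3 muscle lines and the liver line were also higher in every exosome group than in lysates. Their part in the exosome results was not tested.

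Taken as 1 sum over its 6 arms, the cluster was a minor but readily counted component. In exosomes, taking replicates 1 to 4 in order, it made up 0.318, 0.414, 0.658 and 0.826% of counts with IL4, against 0.447, 0.807, 0.708 and 1.12% in controls. In lysates it made up 0.124, 0.1404 and 0.216% with IL4, against 0.352, 0.474 and 0.565% in controls. IL4 lysates lay below every other library, and the ranges of the other groups overlapped one another.

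The 5p arm was the abundant arm of every hairpin, and the 3 of them together accounted for nearly all of the sum. miR-99b-5p made up 28.7 ± 2.86% of the cluster's counts in IL4 exosomes and 28.95 ± 1.95% in control exosomes (SD, n = 4 each), against 38.4 ± 1.94% in IL4 lysates and 42.1 ± 2.27% in control lysates (SD, n = 3 each). miR-125a-5p showed the opposite order, with 37.2 ± 3.96% in IL4 exosomes, 38.8 ± 3.93% in control exosomes, 28.5 ± 2.86% in IL4 lysates and 24.9 ± 1.85% in control lysates. The ranges of exosomes and lysates did not overlap for either arm, whichever treatment was compared. let-7e-5p held a similar part everywhere, from a mean of 30.5% in control exosomes to 33.2% in IL4 exosomes. These are shares of counts within libraries, described without a test, and counts of different miRNAs also carry differences in how well each sequence takes up adapters, so they are not shares of molecules.

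The first question was whether IL4 changed the cluster inside the cells. All 6 arms were lower in IL4 lysates than in control lysates, by 1.11 to 1.93 on the log2 scale, and no range overlapped, but only let-7e-5p and miR-99b-3p passed the test over all miRNAs. Of the 443 lines tested with edgeR's quasi-likelihood test, 7.22% were called at an adjusted p at or under 0.05 (5.87% higher and 1.35% lower), and of the cluster 2 of 6 were called, both lower. Over the 443 lines 15.3% had ranges entirely below the controls, as all 6 arms did. The median log2 fold change was -1.37 over the 6 arms and 0.00 over all lines tested. On library size alone, as in the CPM ratios within dates given below, the median over all lines was -0.19. In bulk lysates, fewer cells of a type and less RNA per cell cannot be told apart.

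miR-99b-5p, the miR-99 family member of the cluster, had 489, 508 and 859 CPM in IL4 lysates, against 1410, 2112 and 2351 CPM in control lysates. Every IL4 library was below every control, and replicate 3 was the highest of both groups. The log2 fold change was -1.44 (SE 0.37, 95% interval -2.29 to -0.60), and the edgeR adjusted p of 0.0561 fell short of the threshold. The dates in the titles pair the libraries, 1 IL4 and 1 control per date, and with the date as a block the value was -1.48 (SE 0.19, edgeR adjusted p = 0.00221). Within dates IL4 lysates held 0.241 to 0.366 of the control level. The call made with the block is absent from the main fit. Without a block, library-size scaling alone also gave one (-1.66, edgeR adjusted p = 0.0279), while 1 fit over 14 libraries gave none. DESeq2 and edgeR on unfiltered counts (-1.47, SE 0.24, edgeR adjusted p = 3.5e-07) called miR-99b-5p too. The unfiltered fit takes its dispersions over near-empty lines as well, so its smaller p is not read as a stronger result.

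miR-99b-3p, its partner arm, had 88, 45 and 113 counts in IL4 lysates, against 288, 309 and 317 counts in control lysates, or 16.1 ± 5.38 CPM against 51.0 ± 6.07 CPM (SD, n = 3 each). The lowest control, at 45.5 CPM, stood well above the highest IL4 library. The arm fell by 1.43 on the log2 scale (SE 0.33, edgeR adjusted p = 0.0354), and by 1.49 with dates blocked (edgeR adjusted p = 0.00270). At each of 3 dates it was lower with IL4, at 0.251 to 0.382 of the control level.

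let-7e-5p, the cluster's copy of let-7, had 424, 456 and 622 CPM in IL4 lysates, against 1210, 1434 and 1693 CPM in control lysates. The 3 dates agreed closely, with IL4 lysates at 0.318 to 0.367 of the control level. It fell by 1.32 on the log2 scale (SE 0.29, 95% interval -1.98 to -0.66, edgeR adjusted p = 0.0310), 2.49-fold, and by 1.34 with dates blocked (edgeR adjusted p = 0.00167). let-7e-3p was near the floor, with 0, 10 and 11 counts in IL4 lysates (0 CPM with a floor of 0.513, then 2.54 and 2.14 CPM), against 53, 35 and 36 counts in control lysates (9.22, 5.15 and 6.53 CPM). The ranges did not overlap, but the log2 fold change of -1.93 had an SE of 0.88 and an edgeR adjusted p of 0.377, and because of the library at 0 its size depends on the prior count.

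miR-125a-5p had 312, 422 and 653 CPM in IL4 lysates, against 834, 1138 and 1527 CPM in control lysates. Groups did not overlap, although the highest IL4 library came close to the lowest control, and in both groups replicate 1 was lowest and replicate 3 highest. Without a date term the log2 fold change of -1.11 (SE 0.40) was not called in the main fit (edgeR adjusted p = 0.216), whereas it was once dates were blocked (-1.16, SE 0.15, edgeR adjusted p = 0.00221). DESeq2 and edgeR on unfiltered counts (-1.13, SE 0.25, edgeR adjusted p = 0.000355) also called it without a date term. In 1 fit over 14 libraries it was not called. The smaller SE of the unfiltered fit again comes with near-empty lines in its dispersions. Within dates the IL4 level was 0.370 to 0.427 of the control level. miR-125a-3p had 1.71, 4.57 and 4.67 CPM in IL4 lysates, against 8.35, 8.83 and 14.5 CPM in control lysates. Its log2 fold change was -1.32 (SE 0.51, edgeR adjusted p = 0.253), and -1.39 with dates blocked (edgeR adjusted p = 0.0638).

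**Figure D2:**
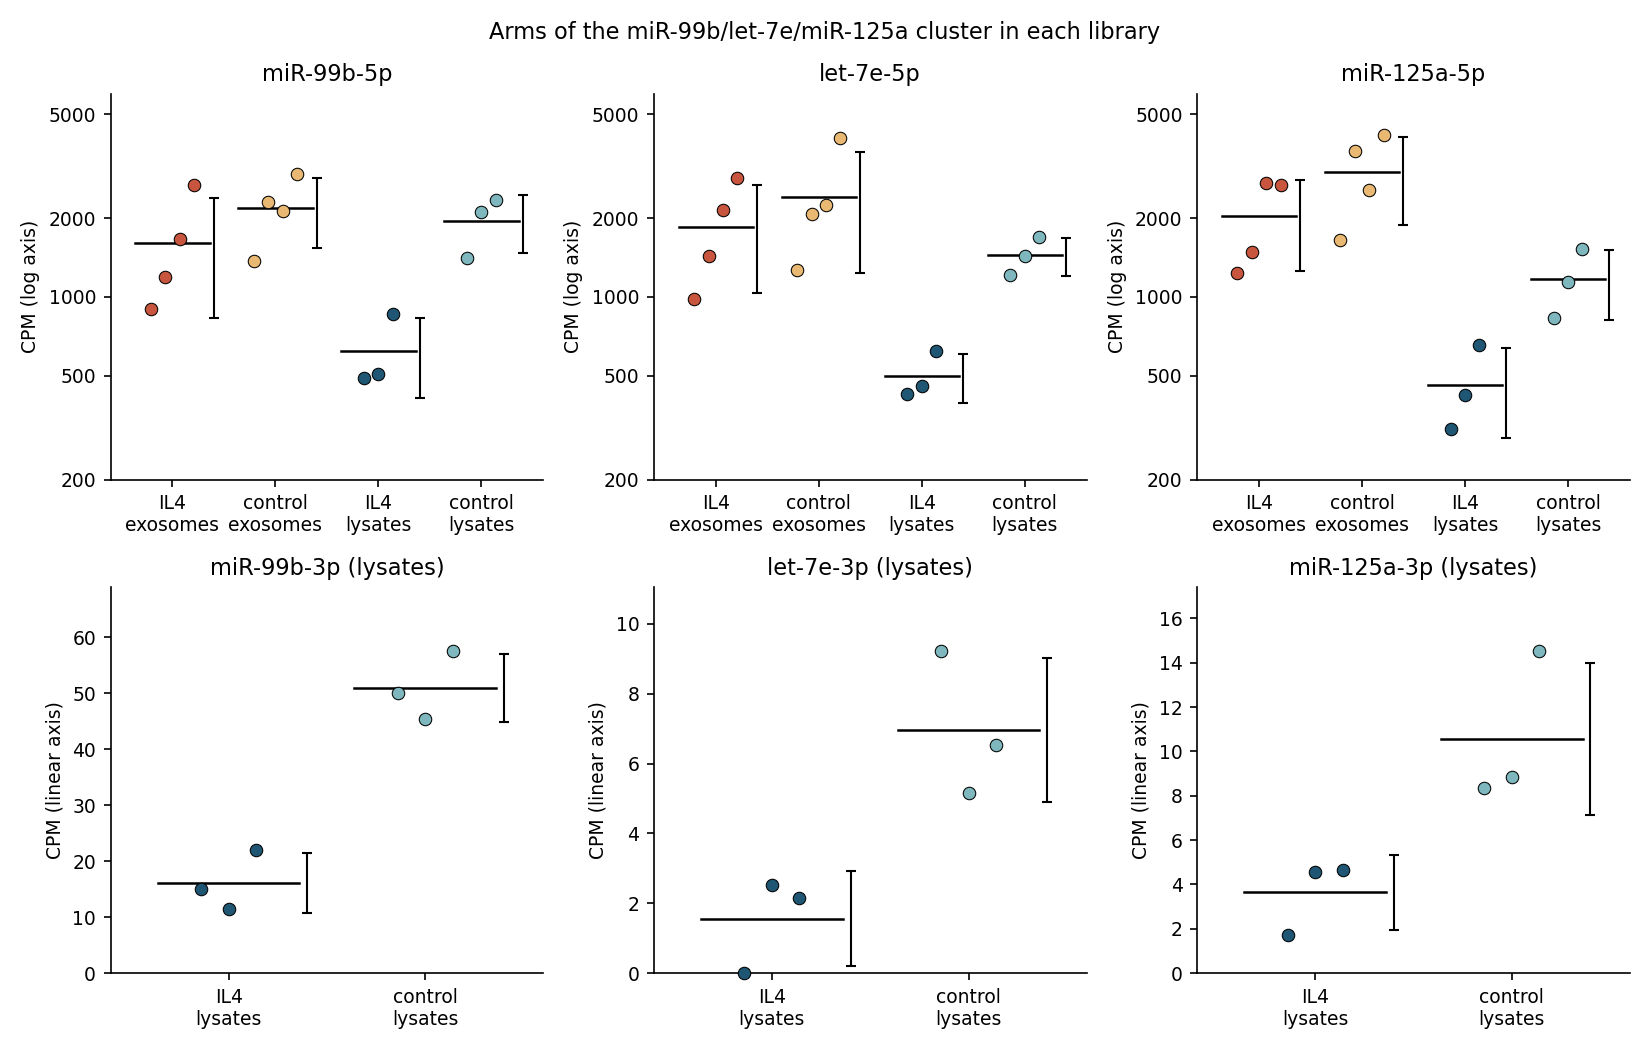
CPM of the 6 arms, with each dot a library in replicate order, a horizontal bar at the group mean and a whisker of 1 SD; the 5p arms are shown in all 4 groups on a log axis and the 3p arms in lysates on a linear axis. In lysates each arm's IL4 dots lie below all of its control dots, as for let-7e-5p at 424 to 622 CPM against 1210 to 1693 CPM, while in exosomes the groups overlap.

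With the date as a block 4 of 6 arms were called lower, against a background of 11.3% of lines called and 2.71% called lower. In 1 fit over all 14 libraries neither let-7e-5p (-1.39, edgeR adjusted p = 0.251) nor miR-99b-3p (-1.50, 0.545) was called. The call of let-7e-5p ended on leaving out IL4 replicate 1 (-1.13, edgeR adjusted p = 0.0618), IL4 replicate 2 (-1.23, 0.220), control replicate 2 (-1.28, 0.201) or control replicate 3 (-1.18, 0.123). That of miR-99b-3p ended without the same 4 libraries (-1.22 to -1.47, edgeR adjusted p from 0.0831 to 0.223) and without control replicate 1 (-1.53, 0.0567). The 4 myeloid marker lines summed to 1.22 to 1.83% of counts in IL4 lysates, against 2.72 to 3.25% in control lysates. Both miR-223 lines were called lower, while miR-142a-3p (-0.05 on the log2 scale, edgeR adjusted p = 0.960) and miR-142a-5p (-0.24, 0.760) were not called. The part of these lines in the result was not tested. let-7e-5p reads also lie 1 base from the far more abundant let-7a-5p, of which they were 0.578 to 1.19% in IL4 lysates and 1.44 to 2.22% in control lysates, and how many were misread let-7a-5p was not tested.

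The next question was whether the vesicles followed the cells. Only the 5p arms had enough counts to be tested in exosomes, all 3 had log2 fold changes below 0, and 0 of 3 were called. In that comparison 0.549% of 182 lines were called with edgeR, and 12 lines had an unadjusted p under 0.05. Of all 182 lines 107 likewise had log2 fold changes below 0, and 131 did on library size alone, at a median of -0.25. The CPM ratios within dates given below are scaled by library size alone, so they carry that shift. DESeq2, and edgeR run on unfiltered counts, also called 0 arms of the cluster.

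In exosomes miR-99b-5p had 899, 1192, 1669 and 2672 CPM with IL4, against 1372, 2299, 2140 and 2953 CPM in controls. The ranges overlapped, but at each of 4 dates the IL4 library was the lower, at 0.519 to 0.905 of its control. The log2 fold change was -0.30 (SE 0.36, 95% interval -1.11 to 0.52, edgeR adjusted p = 0.862).

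Exosomal let-7e-5p stood at 979, 1433, 2147 and 2854 CPM with IL4, against 1267, 2078, 2251 and 4046 CPM in controls. Again the IL4 library was lower at 4 of 4 dates, at 0.690 to 0.954 of its control, within ranges that overlapped. Its log2 fold change was -0.25 (SE 0.42, 95% interval -1.19 to 0.69, edgeR adjusted p = 0.873). Its sign turned on single libraries, with 0.01 without IL4 replicate 2 and 0.32 without control replicate 4, and that of miR-99b-5p likewise, with 0.06 without control replicate 4. These fits had no date term and kept the other library of the same date, so they do not respect the pairing.

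Exosomal miR-125a-5p stood at 1239, 1487, 2730 and 2672 CPM with IL4, against 1654, 3604, 2573 and 4156 CPM in controls. It was lower with IL4 at 3 of 4 dates and about level at replicate 3, with ratios from 0.413 to 1.06. The log2 fold change was -0.41 (SE 0.35, 95% interval -1.19 to 0.38, edgeR adjusted p = 0.860). Blocking on dates gave miR-99b-5p, let-7e-5p and miR-125a-5p values of -0.35, -0.21 and -0.40, none of them called.

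The 3p arms were barely seen in exosomes. miR-99b-3p had 1, 2, 6 and 3 counts with IL4 and 0, 1, 17 and 0 in controls. let-7e-3p had 1 count in 1 of 4 IL4 libraries and 0 in the others, against 0, 1, 2 and 0 counts in controls. miR-125a-3p had 2, 0, 7 and 1 counts with IL4 and 5, 3, 5 and 1 in controls. These arms did not pass the filter of the main fit, and edgeR on unfiltered counts called none of them. In CPM, miR-125a-3p was lower with IL4 at 4 of 4 dates, let-7e-3p at 2 and miR-99b-3p at 1. With so few counts per library, no difference is read from this.

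**Figure D3:**
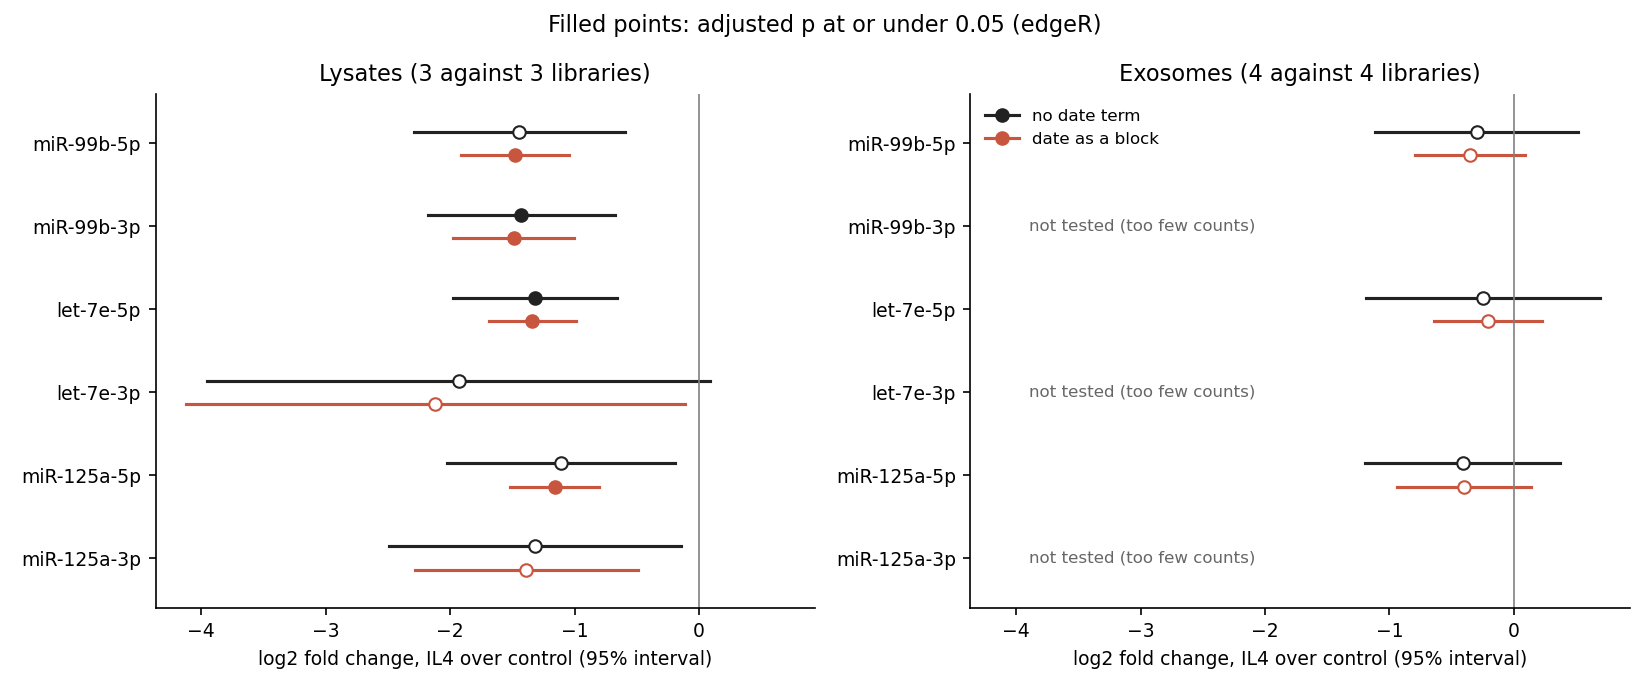
Log2 fold change of IL4 over control for each arm with its 95% interval, in lysates on the left and exosomes on the right, without a date term (black) and with the date as a block (red); filled points have an edgeR adjusted p at or under 0.05. In lysates all points lie below 0, from -1.11 to -1.93 without a date term, and in exosomes the 3 tested points lie from -0.25 to -0.41 with intervals across 0.

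Whether the effect of IL4 differed between vesicles and cells was tested as an interaction over all 14 libraries, in which 0 of 338 lines were called and 14 had an unadjusted p under 0.05. DESeq2 also called 0 lines, and edgeR on unfiltered counts called 3, none of them of the cluster. The fall of miR-99b-5p was larger in lysates by 1.30 on the log2 scale (SE 0.61, 95% interval 0.00 to 2.59, edgeR adjusted p = 0.994) and that of let-7e-5p by 1.22 (SE 0.60, 95% interval -0.07 to 2.51, edgeR adjusted p = 0.994). For miR-125a-5p the difference was 0.84 (SE 0.62, edgeR adjusted p = 0.9999). With dates blocked, let-7e-5p and miR-99b-5p differed by 1.28 each (SE 0.25 and 0.30, edgeR adjusted p = 0.0981 for both), which did not pass either. The difference between compartments in the response of these arms was therefore not called in any of the fits run.

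Exosomes were then set against lysates within each treatment, a comparison that depends on how libraries are scaled. With IL4, miR-125a-5p had 1239 to 2730 CPM in exosomes and 312 to 653 CPM in lysates, without overlap, a log2 fold change of 1.36 (SE 0.45, edgeR adjusted p = 0.0204). let-7e-5p had 979 to 2854 CPM in IL4 exosomes and 424 to 622 CPM in IL4 lysates, also without overlap, and was higher by 1.15 (SE 0.44, edgeR adjusted p = 0.0410). miR-99b-5p had 899 to 2672 CPM in IL4 exosomes and 489 to 859 CPM in IL4 lysates, which did not overlap either, but its value of 0.63 (SE 0.43) was not called (edgeR adjusted p = 0.245). Of 5 arms tested 2 were called, both higher, where 49.1% of the 338 lines were called and 30.2% were called higher, so the cluster's share is near the background. Ranges lay apart upwards in 28.7% of lines. The 3p arms tested had few counts per exosome library and were not called. miR-125a-3p was at 1.36 (SE 0.99, edgeR adjusted p = 0.277) and miR-99b-3p at -0.25 (SE 0.77, edgeR adjusted p = 0.805). Relative to the median of all lines, miR-125a-5p was higher by 1.37, 1.39 and 1.46 and let-7e-5p by 1.16, 1.16 and 1.21 under TMM, RLE and library-size scaling. On library size alone miR-99b-5p was also called (1.38, edgeR adjusted p = 0.00957). Without a filter on low counts let-7e-5p was not called (0.92, edgeR adjusted p = 0.116). Its call also ended without IL4 exosome replicate 3 (1.21, edgeR adjusted p = 0.0520) or replicate 4 (1.06, 0.0589), and without IL4 lysate replicate 1 (1.13, 0.0815) or replicate 2 (1.30, 0.0589).

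In controls none of the 5 arms was called, where 50.9% of lines were. The largest values were of 3p arms with few counts per exosome library. miR-125a-3p was at 1.71 (SE 0.92, edgeR adjusted p = 0.130), without overlap, and miR-99b-3p at -1.20 (SE 0.71, edgeR adjusted p = 0.168). On library size alone miR-125a-3p (2.51, edgeR adjusted p = 0.0290) and miR-125a-5p (1.36, edgeR adjusted p = 0.0116) were called. On unfiltered counts miR-99b-5p was called lower (-1.16, edgeR adjusted p = 0.0224), but it stood 0.02 above the median of all lines there. miR-125a-5p had a log2 fold change of 0.52 (SE 0.44, edgeR adjusted p = 0.339), with 1654 to 4156 CPM in exosomes and 834 to 1527 CPM in lysates, which did not overlap, as in 27.2% of lines. For miR-99b-5p the value was -0.67 (SE 0.42, edgeR adjusted p = 0.192), with 1372 to 2953 CPM in exosomes and 1410 to 2351 CPM in lysates. For let-7e-5p it was -0.07 (SE 0.43, edgeR adjusted p = 0.898), and it turned to 0.35 with RLE scaling and to 0.74 on library size alone. The median over all lines moved likewise, from -0.18 with TMM to 0.22 and 0.63 under those scalings in controls, and from -0.01 to 0.29 and 0.68 with IL4. Relative to that median, let-7e-5p in controls was at 0.10, 0.13 and 0.11 under the 3 scalings, less than its SE. The 2 exosome-against-lysate comparisons contrast different libraries, but both come from 1 fit of 14 libraries and share its filter, scaling and dispersions. The exosomes of both also carry the markers of other cell types described above, whose part was not tested.

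Each 5p arm can be read against its counterpart in the paralogous cluster miR-99a/let-7c/miR-125b-2, a ratio within a library that no scaling can move. The paralogs were chosen with earlier results of these data known, including the rise of miR-99a and miR-125b with IL4, so the ratios are given as a measure of size. let-7c-5p and miR-125b-5p each have 2 genes, so their counts are not of that cluster alone. In lysates 6 of 6 lines of the paralogous cluster had log2 fold changes above 0 and 4 were called higher, where 223 of all 443 lines were above 0 and 5.87% were called higher, and since that rise was known when they were chosen, nothing is read from the count.

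The log2 ratio of miR-99b-5p to miR-99a-5p was -3.77, -3.64 and -3.02 in IL4 lysates, against -1.35, -0.46 and -1.02 in control lysates. These groups were far apart, with a difference of means of -2.53, or 5.78-fold. For miR-125a-5p to miR-125b-5p it was -4.89, -4.49 and -3.91 in IL4 lysates, against -2.33, -1.46 and -1.9998 in control lysates, a difference of -2.50 or 5.66-fold. For let-7e-5p to let-7c-5p it was -6.18, -6.02 and -5.39 in IL4 lysates, against -4.45, -3.98 and -4.12 in control lysates, a difference of -1.68 or 3.20-fold. None of these ranges overlapped, each ratio was lower with IL4 at 3 of 3 dates, and each exact permutation p was 0.1, the smallest that 3 against 3 libraries can give (adjusted over 12 ratio tests, 0.12).

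In exosomes the same ratios were lower with IL4 at 4 of 4 dates each. miR-125a-5p to miR-125b-5p was -3.56, -2.15, -1.83 and -2.30 with IL4, against -1.53, -1.03, -1.198 and -1.59 in controls. These ranges did not overlap, and the difference of -1.12 had an exact permutation p of 0.0286, the smallest possible (adjusted 0.114). miR-99b-5p to miR-99a-5p was -2.43, -2.19, -1.79 and -1.02 with IL4, against -1.03, -0.59, -0.55 and -0.54 in controls. Here replicate 4 of IL4 just reached the lowest control, and the difference was -1.18 (exact permutation p = 0.0571, adjusted 0.114). let-7e-5p to let-7c-5p overlapped as well, with a difference of -0.67 (exact permutation p = 0.0857, adjusted 0.12). No ratio test passed adjustment.

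**Figure D4:**
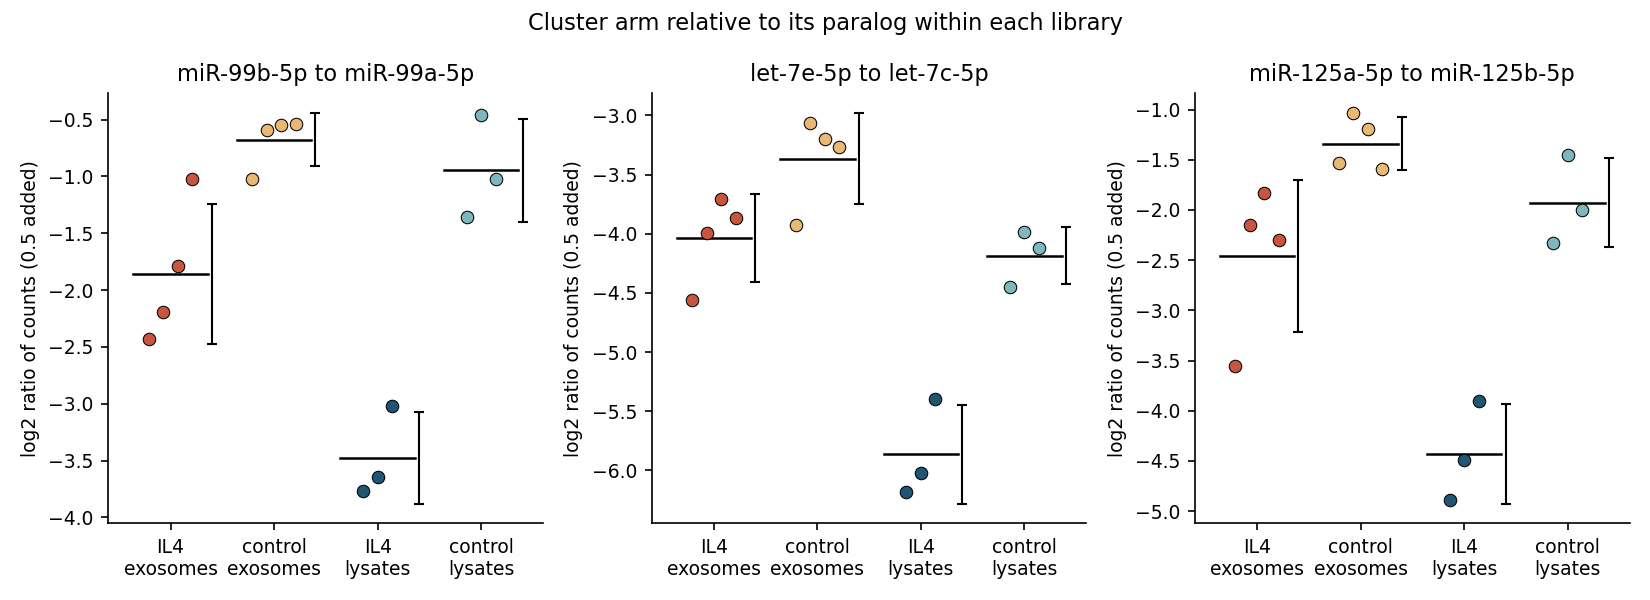
Log2 ratio of counts of each 5p arm to its paralog within each library, with 0.5 added to each count; each dot is a library in replicate order, the bar is the group mean and the whisker 1 SD. IL4 lysates are lowest in each panel, as for miR-99b-5p to miR-99a-5p at -3.77 to -3.02 against -1.35 to -0.46 in control lysates.

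Between compartments with IL4 the ratios were higher in exosomes than in lysates by 1.62 for miR-99b-5p, 1.83 for let-7e-5p and 1.97 for miR-125a-5p (exact permutation p = 0.0286, 0.0286 and 0.0571, adjusted 0.114 each). None of those ranges overlapped. In controls the differences were 0.27, 0.82 and 0.59 (exact permutation p = 0.371, 0.0571 and 0.114), and only the ranges for let-7e-5p were apart.

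Because members of a seed family can bind the same target sites, the share of a family's counts that the cluster supplies was also taken. miR-99b-5p supplied 6.81, 7.39 and 10.9% of the counts with the miR-99 seed in IL4 lysates, against 28.0, 42.0 and 32.9% in control lysates. miR-125a-5p supplied 3.02, 4.03 and 6.05% of those with the miR-125 seed in IL4 lysates, against 13.9, 23.8 and 18.9% in control lysates. let-7e-5p supplied 0.148, 0.192 and 0.296% of those with the let-7 seed in IL4 lysates, against 0.383, 0.472 and 0.580% in control lysates. For each seed, every IL4 lysate lay below every control lysate, and the let-7 share was a trace throughout.

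Of the families as wholes, those of miR-99 and miR-125 were higher on average in IL4 lysates and that of let-7 was lower, described here without a test. These are shares of library totals, a scaling on which the median log2 fold change over all lines was -0.19. All lines with the miR-99 seed made up 0.730 ± 0.0498% of counts in IL4 lysates and 0.573 ± 0.122% in control lysates (SD, n = 3 each), with overlap. Those with the miR-125 seed made up 1.05 ± 0.0236% in IL4 lysates and 0.630 ± 0.167% in control lysates, without overlap. Those with the let-7 seed made up 24.5 ± 3.91% in IL4 lysates and 30.4 ± 1.202% in control lysates, at 20.97 to 28.7% against 29.2 to 31.6%, without overlap. Of 9 let-7 lines tested in lysates, let-7e-5p was the 1 called, and the others had log2 fold changes from -0.23 to 0.33.

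In exosomes miR-125a-5p supplied 15.6 ± 5.77% of its seed family with IL4 and 27.1 ± 3.93% in controls (SD, n = 4 each), without overlap. let-7e-5p supplied 0.814 ± 0.205% with IL4 and 1.19 ± 0.390% in controls, and miR-99b-5p 20.8 ± 8.15% with IL4 and 24.0 ± 11.9% in controls, both with overlap. The miR-99 family in exosomes also contains miR-100-5p, which averaged 552 ± 465 CPM in IL4 exosomes and 5330 ± 5358 CPM in control exosomes and whose spread enters that share. In lysates miR-100-5p averaged 21.02 ± 3.77 CPM with IL4 and 12.6 ± 1.63 CPM in controls.

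**Figure D5:**
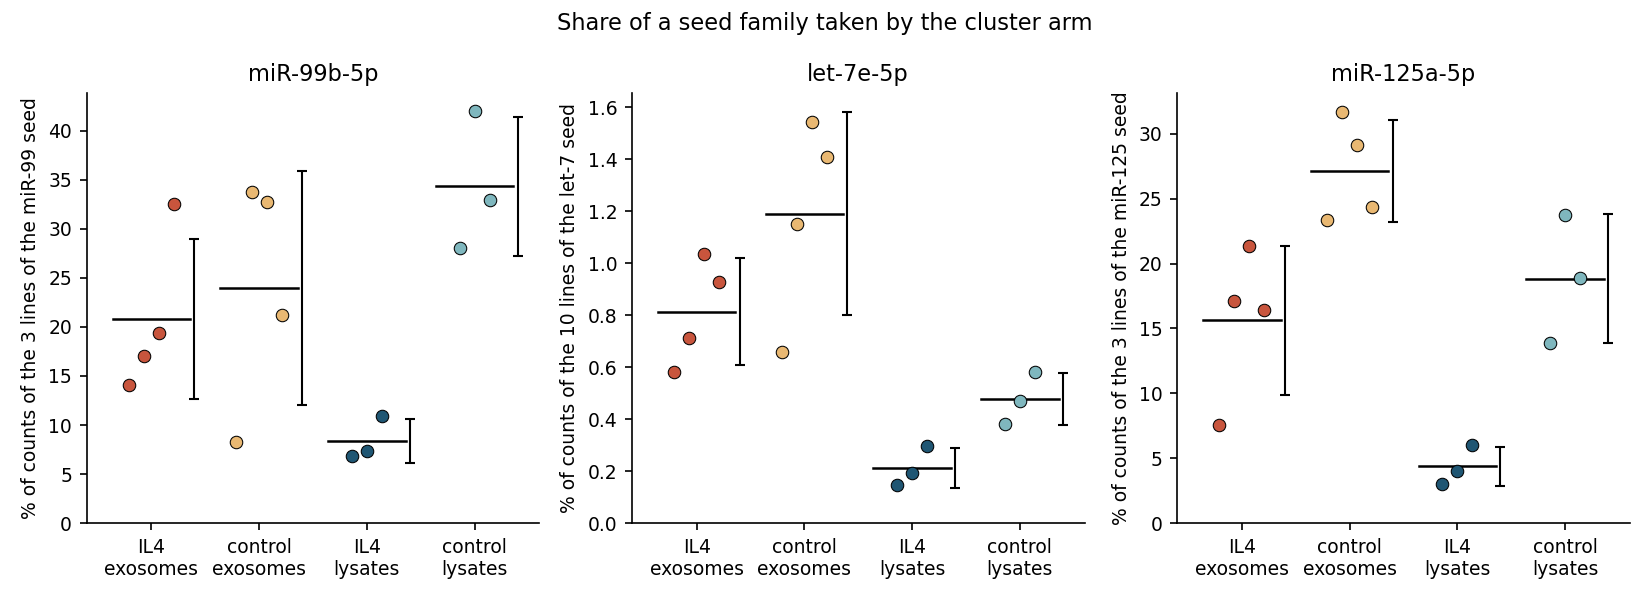
Percentage of the counts of a seed family supplied by the cluster's arm in each library (dots), with group means (bars) and 1 SD (whiskers). IL4 lysates have the lowest mean in each panel, with miR-99b-5p at 6.81 to 10.9% of the miR-99 seed against 28.0 to 42.0% in control lysates. In that panel control exosome replicate 1, at 8.30%, lies within the range of the IL4 lysates.

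Arm balance, a hairpin's 5p counts over its 3p counts, was compared within libraries. In lysates no difference could be called, since an exact permutation of 3 against 3 libraries cannot give a p below 0.1. There the log2 ratio of 5p to 3p counts of Mir99b was 5.01, 5.46 and 5.28 with IL4, against 4.81, 5.53 and 5.35 in controls. The IL4 values lay within the span of the controls, with a difference of 0.02, at an exact permutation p of 1. For Mir125a the ratio was 7.44, 6.49 and 7.10 with IL4, against 6.63, 6.998 and 6.71 in controls, a difference of 0.23 (exact permutation p = 0.60). For Mirlet7e the mean was 9.27 ± 2.63 with IL4 and 7.71 ± 0.59 in controls (SD, n = 3 each), and the highest IL4 ratio, 12.28, came from the library with 0 counts of let-7e-3p. In exosomes the ratios rest on a few 3p counts per library, and none of 12 tests of arm balance passed adjustment (smallest adjusted p = 0.686).

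Across the 6 lysates the 5p arms of the cluster were one another's closest lines. Likeness was measured as the root mean square difference of TMM-scaled log2 CPM, each line centred on its mean over the 6 libraries, among 442 other lines. IL4 and control lysates were centred together, so the fall with IL4 described above enters this measure, and closeness is not a separate result. From miR-99b-5p the nearest line was let-7e-5p at 0.157, then miR-125a-5p at 0.209, with miR-99b-3p in place 4 at 0.253 and miR-125a-3p in place 5 at 0.394. From let-7e-5p the first 3 places went to miR-99b-5p, miR-125a-5p and miR-99b-3p. From miR-125a-5p they went to let-7e-5p at 0.207, miR-99b-5p at 0.209 and miR-125a-3p at 0.279. let-7e-3p, with its library at 0 counts, stood far off at 1.01 from miR-99b-5p, in place 254.

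Among the nearest lines outside the cluster, miR-3095-3p was in place 3 or 4 for each 5p arm, with 1.12 ± 0.547 CPM in IL4 lysates and 3.46 ± 1.39 CPM in control lysates (SD, n = 3 each) from 3 to 33 counts per library. miR-30f was in place 6 for each, with 3.84 ± 0.616 CPM in IL4 lysates and 6.92 ± 1.24 CPM in control lysates. Place 7 went to miR-7656-5p for miR-99b-5p, to miR-450a-1-3p for let-7e-5p and to miR-10a-3p for miR-125a-5p. None of these 5 lines was called with IL4 in lysates.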

How the data were processed

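The 8 exosome and 6 lysate libraries share 1 deposited table, in which the authors give unnormalized counts for each mature miRNA. Library preparation used a PerkinElmer NextFlex kit, per the labels' protocols. The tool cutadapt, without a version, and the build mm10 are listed in the submitters' processing notes. No source used here names the aligner, counter, annotation or use of strand, so near-copies within a seed family are uncertain where the counting could split them. Of 1250 lines 10 join miRNAs of 1 sequence, and 0 columns were left unused. Within groups, libraries differed by more than sampling noise (lowest chi-square over its degrees of freedom, 20.98).

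CPM are counts scaled to a common library total. Tests between groups used edgeR 4.0.16 under R 4.3.3 (filterByExpr, TMM, glmQLFit and glmQLFTest, two-sided, Benjamini-Hochberg over all lines tested, threshold 0.05), within compartments on their own libraries and otherwise in 1 fit of 14 libraries. Biological coefficients of variation were 0.493 (exosomes), 0.350 (lysates) and 0.480 (both). Standard errors were taken as the size of the log2 fold change over the square root of F. Ratios within libraries, with 0.5 added to each count, were tested with an exact two-sided permutation test over libraries, and each set of 12 was adjusted together. The scripts were tested on simulated data. Alternatives were RLE or no scaling, DESeq2 1.42.0, no filter, other sets of libraries, leaving out each library, 1 added to each count, and the date as a block.

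The titles' dates, each with 1 IL4 and 1 control library per compartment, gave the replicate numbers and the pairing. Deviations from the group mean correlated between same-date libraries at 0.46, 0.185, 0.724 and 0.267 over 182 lines in exosomes. In lysates the correlations were 0.611, 0.256 and 0.282 over 443 lines. Libraries of different dates were not compared in this way, so the part of the date was not tested. Exosomes and lysates share no date.

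The members, the paralogs and the lists were chosen with earlier results of these data known. The text names all 6 members, lines of the 2 paralogous clusters and of the members' seed families, and the 3 lines outside the cluster nearest to each 5p arm over the lysates. For miR-100-3p no line was found, and it was not analysed here.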

Additional observations from a re-analysis of the deposited data

Results flagged for a closer look

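Among 32 groups of values examined for a library far from the others, 2 stood out, and chance marks about 1 in 20 such groups. let-7e-3p in IL4 exosomes had 13.0 CPM in its highest library, which is 1 count in replicate 4, while the other IL4 exosome libraries had 0 counts. The log2 ratio of miR-99b-5p to miR-99a-5p in control exosomes was -1.03 in its lowest library, replicate 1, against -0.59, -0.55 and -0.54 in the others. That library is the shallowest of the series, with 28417 counts, of which 39 were miR-99b-5p and 80 were miR-99a-5p.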

How the results depend on the processing

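In lysates 2 arms of the cluster were called with IL4. The count was 3 on library size only, 4 with DESeq2, 5 without a filter, 4 with the replicate block of dates, 0 in 1 fit over 14 libraries and 0 to 3 on leaving out 1 library, and in all of these fits the log2 fold changes of the 6 arms stayed below 0 where tested. Exosomes against lysates with IL4 gave 2 calls, 3 on library size only or with DESeq2, 1 without a filter and 1 to 2 on leaving out 1 library. In controls it gave 0 calls, 2 on library size only, 2 with DESeq2, 1 without a filter and 0 to 2 on leaving out 1 library. No arm was called for IL4 in exosomes or for the interaction under any alternative run.

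Signs turned as follows, none of these values being called, and the cause was not tested. On leaving out 1 library, IL4 in exosomes ranged from -0.40 to 0.32 for let-7e-5p and from -0.518 to 0.0618 for miR-99b-5p. Exosomes against lysates with IL4, miR-99b-3p was 0.052 with RLE, 0.51 on library size and 0.057 with DESeq2, and ranged from -0.39 to 0.34 on leaving out 1 library. In controls, let-7e-5p was 0.35 with RLE and with DESeq2, 0.74 on library size and 0.18 on its own libraries, and ranged from -0.46 to 0.41, while miR-99b-5p was 0.16 on library size. The interaction of miR-125a-3p was 0.13 with the replicate block and ranged from -0.87 to 0.44. Arm balance, on leaving out 1 library, ranged from -0.69 to 0.37 for Mir125a and from -2.11 to 0.32 for Mirlet7e in exosomes against lysates with IL4, and from -0.19 to 0.17 for Mir99b with IL4 in lysates. In the replicate block, exact permutation within dates gave p = 0.125 in exosomes and 0.25 in lysates for each paralog ratio, the smallest it can give. Depth limits the 3p arms in exosomes to a few counts per library.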
